A study of Mus musculus with 6 samples.

Results

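The miR-378 family was followed in mouse nephron progenitor cells, the cells of the outer kidney that give rise to nephrons, taken from embryos (stage E14.5) or from newborn pups (stage P0, the day of birth). Its 4 members, mmu-miR-378a-3p, mmu-miR-378a-5p, mmu-miR-378c and mmu-miR-378d, were chosen by name and were all found among the 1034 distinct mature miRNAs of the deposited table, each in a single row. All animals were of the CD1 strain, and the labels list no mutation or drug in either group. Each sample was the pooled kidneys of 1 litter, from which Itga8-positive cells were pulled out on antibody-coated magnetic beads after a short digestion, so a sample is an enriched fraction and not a pure cell type. There were 3 samples per stage. Genes that define nephron progenitors, such as Six2, are protein-coding and lie outside a miRNA table, so the label of the cells could not be checked against them.

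A miRNA hairpin can give a mature product from each arm, named 5p and 3p, and the product that is loaded into Argonaute pairs with messenger RNAs mainly through bases 2 to 8, its seed. miR-378a lies in an intron of Ppargc1b, the gene of PGC-1β, a coactivator of nuclear receptors that drives genes of mitochondrial respiration and fatty acid oxidation. Both of its arms have been described as regulators of oxidative metabolism, and the miRNA is known from muscle, liver and brown fat. miR-378c and miR-378d are family copies elsewhere in the genome for which the table holds a single mature product each.

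The mature sequences and hairpins below are shown because the family names hide a difference in seed and in arm. They are RefSeq sequences on GRCm38, matched by name for 3 of the 5 miR-378 names of the table, at the same positions as in the table. The chromosome that holds miR-378a was left out of this matching. miR-378a-3p and miR-378a-5p are therefore given by name only and enter no sequence comparison. The sequences shown include miR-378b, which is not one of the 4 members and was named because it carries the family number. Capitals in the first 3 lines mark the seed.
miR-378c: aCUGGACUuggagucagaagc
miR-378d: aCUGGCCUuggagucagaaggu
miR-378b: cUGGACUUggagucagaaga
Counted from the 5′ end of miR-378c, miR-378d differed from it by 2 substitutions over 21 aligned bases, A6C inside the seed and C21G at the end. miR-378b started 1 base later and then differed from miR-378c by 1 substitution over 20 aligned bases, C21A. These 3 miRNAs therefore had 3 different seeds, and no other miRNA with a sequence in that table shared any of them, which says nothing about miR-378a-3p or miR-378a-5p. miR-378c and miR-378b shared a run of 19 bases, so how shortened reads were divided between them depended on the authors' counting. How reads were divided between miR-378a-3p and the other family copies, miR-378c among them, was not examined. Their levels may therefore not be separate readings. In the hairpins, capitals mark the mature product.
miR-378c hairpin: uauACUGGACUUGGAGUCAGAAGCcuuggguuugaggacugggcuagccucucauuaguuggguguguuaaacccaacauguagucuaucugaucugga
miR-378d hairpin: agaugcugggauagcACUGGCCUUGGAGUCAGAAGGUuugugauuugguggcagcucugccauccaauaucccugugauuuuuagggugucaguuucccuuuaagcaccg
miR-378b hairpin: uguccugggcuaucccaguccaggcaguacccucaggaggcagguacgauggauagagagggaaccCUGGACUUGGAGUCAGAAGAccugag
The mature product of miR-378c took bases 4 to 24 of a 99-base hairpin and that of miR-378d bases 16 to 37 of a 110-base hairpin, both on the 5′ side of the loop. That of miR-378b took bases 67 to 86 of 92, on the 3′ side.

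The members lay at 3 places in the genome (positions of the table, build mm10; annotation GENCODE M21). miR-378a-3p was at chr18:61397838-61397858 and miR-378a-5p at chr18:61397875-61397896, both on the minus strand, in the same orientation as the Ppargc1b intron that holds them. A second miRNA gene model, Gm25301, covers the same bases on the opposite strand. miR-378c was at chr14:46954905-46954925 on the minus strand, inside an intron of Samd4 but in the opposite orientation. miR-378d was at chr10:126710355-126710376 on the minus strand, in no other annotated gene. miR-378b was at chr11:88352839-88352858 on the plus strand, inside an intron of Msi2 and opposite to it.

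Levels are given in TPM, the authors' values per length, scaled so that each library sums to 1000000. Reads recovered from these values numbered 2649506 to 34934526 per library, and the smallest 2 libraries were E14.5 replicates 1 and 3. The stage model was fitted with limma to log2(TPM + 1) of the 670 miRNAs whose mean reached 1 TPM, a scale that understates the change of low miRNAs. All 4 members passed that filter. In TPM the log2 fold change had a median of −1.20 over those miRNAs, so values were also divided by median-of-ratios size factors (scaled TPM), after which the median was −0.17. One library stood apart: P0 replicate 1 correlated across miRNAs at a mean of 0.908 with its own stage and 0.948 with the E14.5 stage. In bulk samples, fewer cells that carry a miRNA and less of it per cell cannot be told apart.

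The dominant product of the family was miR-378a-3p, which ranked 82 of 1034 miRNAs by mean TPM. For replicates 1, 2 and 3 in that order, as in every list of this kind, it stood at 683, 926 and 457 TPM at E14.5, and at 843, 1076 and 1242 TPM at P0. P0 replicates 2 and 3 lay above every E14.5 library, while P0 replicate 1 fell below E14.5 replicate 2, so the stages overlapped. The stage means were 689 ± 234 and 1054 ± 201 TPM (SD, n = 3). On the log2 scale the change was 0.65 with an SE of 0.51 (limma adjusted p = 0.308). In scaled TPM it had 452, 630 and 266 at E14.5 and 961, 2038 and 2191 at P0. Every P0 library was then above every E14.5 library, with P0 replicate 1 the closest to them. The change was then 1.94 with an SE of 0.50 (limma adjusted p = 0.0401), a 3.83-fold difference.

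The other arm of the same hairpin, miR-378a-5p, was lower in level and irregular at P0. Its E14.5 values were 76.1, 85.1 and 61.5 TPM, and its P0 values 172, 38.0 and 40.1 TPM. One P0 library thus lay above the whole E14.5 range and the other two lay below it. The log2 fold change was −0.19 in TPM (SE 0.66, limma adjusted p = 0.831) and 1.07 in scaled TPM (SE 0.55, limma adjusted p = 0.189), so its direction turned with the scaling and neither value passed the threshold. Without P0 replicate 1 the TPM value was −0.90 (limma adjusted p = 0.0605), and the scaled value was 0.54 (limma adjusted p = 0.257). The median over all tested miRNAs was −1.40 in that TPM fit, where 365 of 689 were called lower, and −0.32 in the scaled fit.

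miR-378c was the member whose stages were separate under both scalings. Its E14.5 values were 35.4, 52.1 and 26.9 TPM, and its P0 values 82.4, 73.6 and 71.8 TPM. The P0 values lay close together, above all E14.5 values, and P0 replicate 1 did not stand apart from the other P0 libraries. The log2 fold change was 1.02 in TPM (SE 0.55, limma adjusted p = 0.151), which did not pass the threshold. In scaled TPM the values were 23.4, 35.5 and 15.7 at E14.5 and 94.0, 139 and 127 at P0, a log2 change of 2.28 with an SE of 0.50 (limma adjusted p = 0.0311), or 4.85-fold.

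miR-378d, with the changed seed, was the least abundant. It had 2.65, 3.99 and 1.37 TPM at E14.5 and 3.82, 5.90 and 4.93 TPM at P0. E14.5 replicate 2 lay above P0 replicate 1, and E14.5 replicates 1 and 3 rested on 7 reads each, so this level was poorly measured there. The log2 fold change was 0.73 in TPM (SE 0.55, limma adjusted p = 0.299) and 1.70 in scaled TPM (SE 0.57, limma adjusted p = 0.0759). miR-378b, with the shifted seed, had 2.51, 5.53 and 5.63 TPM at E14.5 and 10.1, 5.12 and 7.41 TPM at P0, the first value from 6 reads. Its log2 fold changes were 0.64 in TPM (limma adjusted p = 0.377) and 1.71 in scaled TPM (limma adjusted p = 0.0629).

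**Figure D1:**
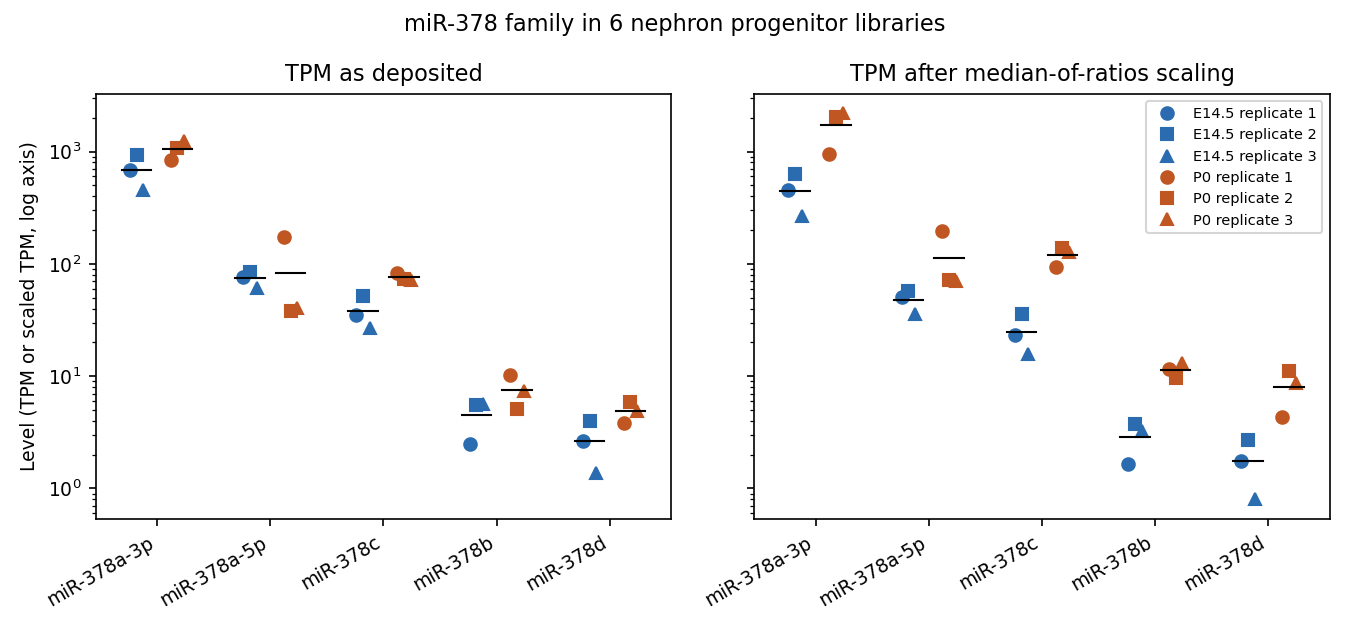
Level of each miR-378 miRNA in the 6 libraries on a log axis, in TPM (left) and in scaled TPM (right); points are libraries, with 1 marker shape per replicate number, and bars are stage means. In TPM only miR-378c has all P0 libraries above all E14.5 libraries; in scaled TPM all 5 miRNAs do.

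Counted over the members, 0 of 4 were called at an adjusted p under 0.05 in TPM, where limma called 34.2% of all tested miRNAs, 1.34% higher and 32.8% lower at P0. An unadjusted limma p under 0.05 was found for 0 of 4, against 49% of all tested (328 of 670). Their median log2 fold change was 0.69, against −1.20 for all tested miRNAs. In scaled TPM, 2 of 4 were called higher, miR-378a-3p and miR-378c, where 10.9% of all tested miRNAs were called, 5.67% higher and 5.22% lower. The median was then 1.82, against −0.17 for all. Stage values did not overlap and were higher at P0 for 1 of 4 members in TPM, against 3.13% of tested miRNAs, and for 4 of 4 in scaled TPM, against 15.8%. The log2 fold change of miR-378c exceeded that of 95.7% of tested miRNAs in TPM and 96.7% in scaled TPM, and that of miR-378a-3p exceeded 90.6% and 93.3%. The members share an annotation name and, in part, sequence, so they are not independent of each other.

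The 2 scaled calls depended on which libraries were in the fit. Without P0 replicate 1, miR-378a-3p, miR-378c and miR-378d were called higher in scaled TPM, with log2 fold changes of 2.26, 2.39 and 2.01 (limma adjusted p of 0.00184, 0.00255 and 0.0135), where 21.7% of tested miRNAs were. Leaving out any of the other 5 libraries in turn ended both calls, with log2 fold changes of 1.58 to 2.24 for miR-378a-3p (limma adjusted p of 0.0606 to 0.203) and of 1.97 to 2.57 for miR-378c (0.0513 to 0.166). In those 5 fits 0% to 0.459% of all tested miRNAs were called higher. With no miRNA called in either direction in 3 of the 5, unadjusted limma p-values under 0.05 numbered 140 to 147 there. With limma-voom on the recovered reads, miR-378c was called (2.24, adjusted p = 0.0474) and miR-378a-3p was not (1.91, adjusted p = 0.0635), where 2.54% of tested miRNAs were called higher.

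In the authors' deposited table, 5.13% of the 1034 miRNAs had an adjusted p-value under 0.05 and were higher at P0, and miR-378a-3p and miR-378c were among them. The authors' deposited table gave log2 fold changes of 1.74 for miR-378a-3p (standard error 0.64, adjusted p = 0.0446) and 2.00 for miR-378c (standard error 0.63, adjusted p = 0.0181). For miR-378a-5p, miR-378d and miR-378b the authors' deposited table gave 0.74, 1.82 and 1.91, with adjusted p of 0.432, 0.244 and 0.161. These values rest on the same 6 libraries.

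**Figure D2:**
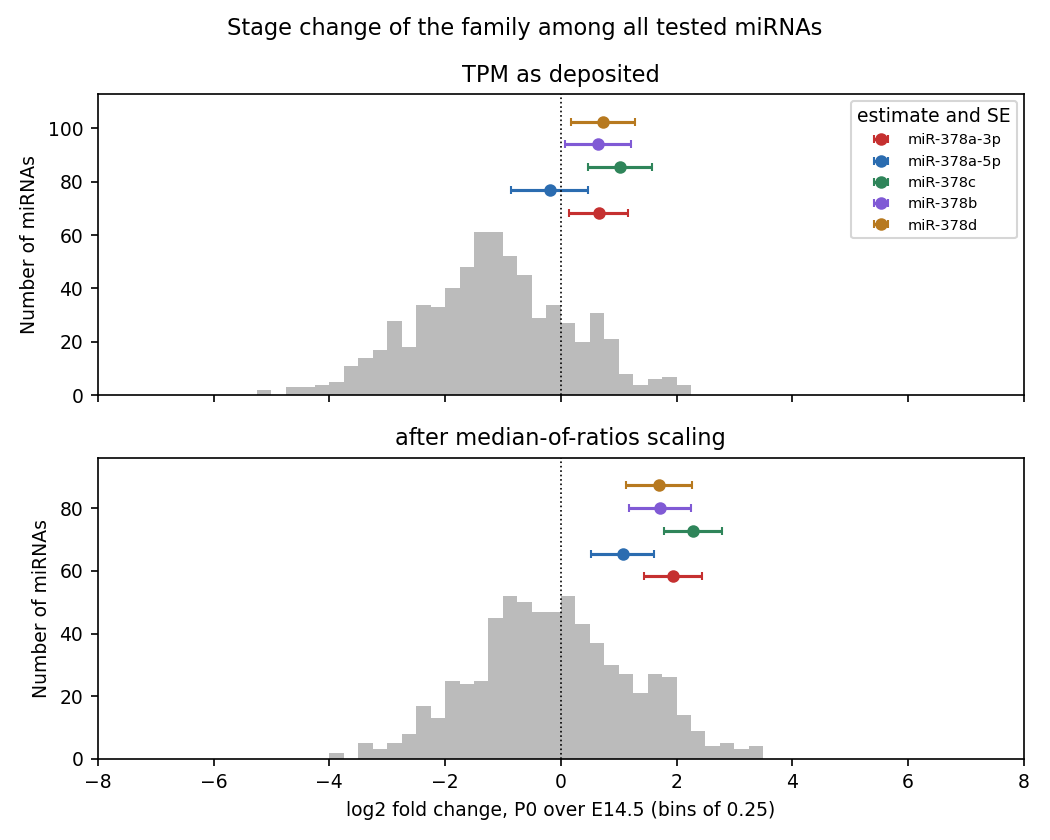
Log2 fold change of the 5 miR-378 miRNAs (points, with bars of 1 standard error) above the distribution over all 670 tested miRNAs (grey, bins of 0.25), in TPM and in scaled TPM. In both panels all 5 points lie to the right of most miRNAs, with miR-378a-5p the lowest of them at −0.19 in TPM and 1.07 in scaled TPM, above 76.4% and 80% of tested miRNAs.

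A ratio of plain TPM within a library does not depend on how libraries are scaled to each other, so the 2 arms of miR-378a were compared in this way. At E14.5 the 3p arm was 8.98, 10.9 and 7.43 times the 5p arm. It was 4.90 times the 5p arm in P0 replicate 1, and 28.3 and 31.0 times in P0 replicates 2 and 3. The 3p arm was thus the more abundant in all 6 libraries, and the P0 libraries lay on both sides of the E14.5 range. The mean log2 ratio of (TPM + 1) was 3.15 ± 0.28 in embryos and 4.00 ± 1.48 after birth (SD, n = 3), a difference of 0.85 (SE 0.74, limma adjusted p = 0.417). Of 207 hairpins with both arms tested, limma called 0 in either direction, 0% of those tested, and 59 had an unadjusted p under 0.05. The median difference over these hairpins was 0.01.

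Without P0 replicate 1 the arm difference of miR-378a was 1.70 (limma adjusted p = 0.00465), and 42.7% of 213 hairpins were called, with 21.1% of the 213 shifted towards the 3p arm. Without P0 replicate 2 or 3 it was 0.45 and 0.39, neither past the threshold. A split like that of miR-378a, with P0 replicate 1 below the E14.5 range and the other two P0 libraries above it, was present in 10 of the 207 hairpins (4.83%), and the split in either direction in 28 (13.5%). This count was made after the values of miR-378a had been seen. The P0 range of the log2 arm ratio was 2.63 for miR-378a, against a median of 1.58 over hairpins.

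The minor copies were compared with miR-378a-3p by their log2 ratios of (TPM + 1). The ratio of miR-378a-3p to miR-378c was 4.23, 4.12 and 4.03 at E14.5, and 3.34, 3.85 and 4.09 at P0. P0 replicate 1 was the lowest and P0 replicate 3 lay inside the E14.5 range. The stage means differed by −0.37, which a two-sided exact permutation test did not separate (p = 0.2, adjusted over 2 ratios 0.4; 3 samples against 3 cannot give less than 0.1). The ratio of miR-378a-3p to miR-378d was 7.55, 7.54 and 7.59 at E14.5 and 7.45, 7.29 and 7.71 at P0, a difference of −0.08 (exact permutation p = 0.7, adjusted 0.7). At the low level of miR-378d these values depended on the added 1 TPM. Without it the log2 ratios were 8.01, 7.86 and 8.38 at E14.5, 2 of them resting on 7 reads, and 7.78, 7.51 and 7.98 at P0. The stages overlapped in this form as well, and the difference was −0.33 (exact permutation p = 0.2). For miR-378c the difference without the added 1 TPM was −0.39 (exact permutation p = 0.2).

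**Figure D3:**
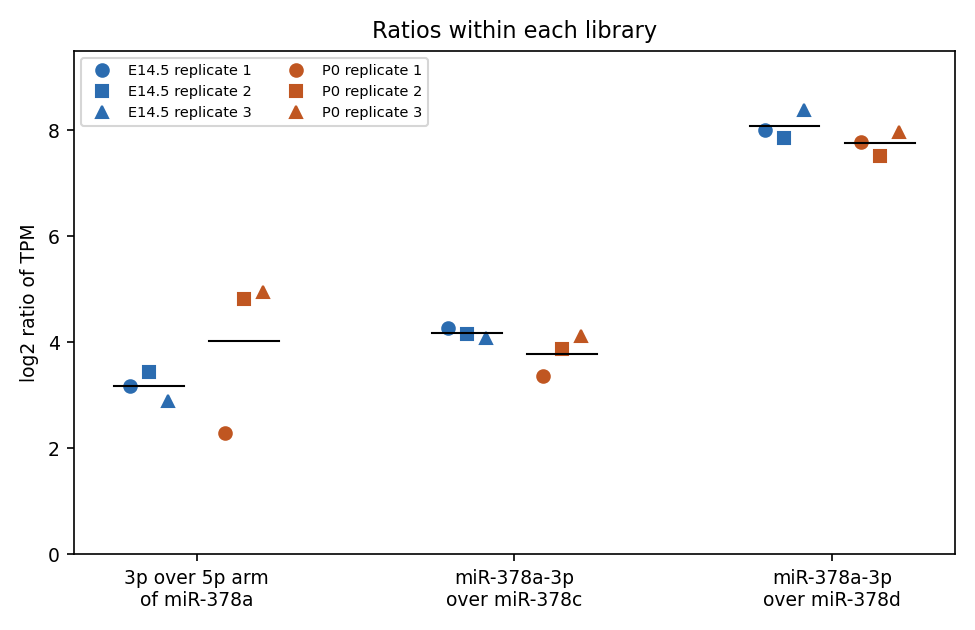
Log2 ratios of TPM, with no pseudocount, within each library for the 2 arms of miR-378a and for miR-378a-3p over miR-378c and over miR-378d; points are libraries and bars are stage means. The arm ratio is 2.29 in P0 replicate 1 and 4.82 and 4.95 in P0 replicates 2 and 3, and the ratio to miR-378d lies between 7.51 and 8.38 over the 6 libraries.

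In the make-up of the family, miR-378a-3p held 85.3% ± 1.62 of the summed TPM in the E14.5 group and 86.0% ± 8.25 in the P0 group (SD, n = 3). In reads, its share in P0 replicate 1 was 75.9% (95% Wilson interval 75.5 to 76.4), against 90.0% (89.6 to 90.4) and 91.3% (90.9 to 91.6) in P0 replicates 2 and 3. The share of miR-378a-5p in those libraries was 16.3% (15.9 to 16.7), 3.34% (3.12 to 3.56) and 3.09% (2.89 to 3.30). miR-378c held 4.75% ± 0.27 of it in the E14.5 group and 6.31% ± 1.11 in the P0 group (SD, n = 3), and miR-378d 0.319% ± 0.0626 and 0.402% ± 0.0805. The summed TPM of the 4 members was 804 ± 260 in the former and 1218 ± 131 in the latter (SD, n = 3). In scaled TPM the sums were 524 ± 204 and 1971 ± 623.

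The order of levels was the same in the E14.5 libraries and in P0 replicate 1 for the first 3 places: miR-378a-3p, miR-378a-5p, miR-378c. In those 4 libraries miR-378a-5p was between 1.63 and 2.28 times miR-378c. In P0 replicates 2 and 3 it was 0.516 and 0.558 times miR-378c, so miR-378c took the second place there. miR-378d and miR-378b came last, and their ranges overlapped at both stages. Over the 6 libraries the Pearson correlation of log2(TPM + 1) with miR-378a-3p was 0.97 for miR-378d, 0.86 for miR-378c, 0.30 for miR-378b and −0.29 for miR-378a-5p. These points share library scaling and similar sequences, and the values describe these libraries alone.

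Outside the family, the 5 miRNAs most like miR-378a-3p over the 6 libraries, among 429 whose mean reached 10 TPM, were miR-129-5p, miR-16-5p, let-7j, miR-676-3p and miR-668-3p. Their Pearson correlations with it were 0.94, 0.92, 0.88, 0.85 and 0.82. They were chosen for this likeness, so their own stage levels are a description. miR-676-3p had 313 ± 113 TPM in embryos and 858 ± 178 after birth, and miR-129-5p 7.63 ± 2.13 and 13.8 ± 4.70 (SD, n = 3).

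Other miRNAs with described roles in lipid, glucose or mitochondrial metabolism were taken from a list of 30, of which 29 were in the table and 26 were tested. In TPM 0 were called higher and 6 lower at P0, where 1.34% and 32.8% of all tested miRNAs were. The median log2 fold change was −1.09 against −1.20 for all tested miRNAs. The 6 were miR-375-3p, known from pancreatic islets and the control of insulin secretion (−3.44), miR-365-3p, a miRNA of brown fat differentiation (−3.04), miR-30b-5p (−2.95) and miR-30c-5p (−2.90), miR-455-5p (−2.40), and miR-155-5p, a regulator of immune cells and of brown fat differentiation (−1.77). Their limma adjusted p ranged from 0.0104 to 0.0349. In scaled TPM 2 were called higher and 0 lower, against 5.67% and 5.22% of all tested, with a median of 0.13 against −0.17. They were miR-29a-3p, a repressor of collagen genes that also acts on insulin signalling (log2 fold change 2.39, limma adjusted p = 0.0311), and miR-223-3p, a myeloid miRNA (1.64, limma adjusted p = 0.0401). No miRNA of this list was called in the same direction under both scalings.

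Marker miRNAs of other cell types were read beside the family. Their counts of calls stand against 32.8% of all tested miRNAs called lower and 1.34% higher in TPM, and 5.22% lower and 5.67% higher in scaled TPM. The 6 muscle markers, a tissue rich in miR-378a, summed to 30.002 to 76.2 TPM at E14.5 and 15.4 to 133 TPM at P0. By library that sum was 30.002, 66.0 and 76.2 TPM at E14.5, and 25.4, 15.4 and 133 TPM at P0. 4 of the 6 were tested and 0 were called in either scaling. miR-208b-3p was at 0 in 5 of 6 libraries and miR-133b-3p in 3 of 6. The 4 adipose markers summed to 358 to 808 TPM at E14.5 and 184 to 240 TPM at P0, and 2 of 3 tested were called lower in TPM and 0 in scaled TPM. The 4 leukocyte markers summed to 632 to 1202 TPM at E14.5 and 454 to 629 TPM at P0, with 0 of 4 called in TPM and 1 of 4 called higher in scaled TPM.

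Epithelial markers of the miR-200 family summed to 4122 to 23183 TPM at E14.5 and 500.2 to 1542 TPM at P0, and 5 of 5 were called lower in TPM (32.8% of all tested) and 3 of 5 in scaled TPM (5.22% of all tested). The 2 endothelial markers summed to 26608 to 44921 TPM at E14.5 and 5634 to 8158 TPM at P0, with both called lower in TPM and 1 in scaled TPM. The 4 erythroid markers summed to 242 to 417 and 127 to 189 TPM, and the 6 stromal markers to 84962 to 101473 and 33590 to 46336 TPM, with 1 and 3 called lower in TPM and 0 called in scaled TPM. The 4 miRNAs of the Hox clusters that were listed, miR-10a-5p, miR-10b-5p, miR-196a-5p and miR-196b-5p, summed to 72606 to 111721 TPM at E14.5 and 79891 to 235302 TPM at P0, with 0 called in TPM and 1, miR-196a-5p, called higher in scaled TPM. Their log2 fold changes in TPM were −0.95, −1.16, 1.55 and 0.31, so the sum joins miRNAs with opposite signs. The part of these cell types in the values of the miR-378 family was not tested.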

How the data were processed

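Small RNA libraries (QIAseq kit, single-end, per the labels' protocols) were made from 3 litter pools per stage. The authors' deposited table holds 1104 rows with TPM per sample. It also holds, per the file headers, the authors' baseMean (a normalised signal), log2 fold change with its standard error, test statistic (a score), p-value and adjusted p-value. The submitters' processing notes name featureCounts, DESeq2 1.26.0 and build mm10. The aligner, trimming and use of molecular tags are not given in the sources used here. The authors' sign was read as P0 over E14.5 from the per-sample values.

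Multiplied by end minus start, 100% of the TPM values were whole multiples of 1 step per library (tolerance 1e-06, relative), which gave the recovered reads. Where a miRNA had several rows, the one with the highest total was kept. This does not touch the family. limma 3.58.1 (R 4.3.3, moderated variances with a trend) was fitted on log2(TPM + 1) for all 6 samples with stage as the only term, and on log2 3p over 5p ratios for hairpins with both arms. P-values were Benjamini-Hochberg adjusted over all features tested and called under 0.05. Median-of-ratios factors came from 546 miRNAs without zeros. On simulated data, the scaled stage fit recovered 100% of 200 miRNAs changed 4-fold, and the arm fit 99.6% of changed hairpins, among miRNAs with a mean of 10 TPM or more. The level of miR-378d and miR-378b lies below that. Noise was set alike for all simulated libraries, and none was made to stand apart as P0 replicate 1 does. The recovery therefore checks the fitting steps and does not measure power in these data.

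A floor of 3 reads for a 21-base step is 0.0863 to 1.14 TPM. Intervals and floors cover counting error only. The labels call the samples biological replicates, 1 litter pool each, and give no batch. The single miRNAs named were the members, other miR-378 names, miRNAs sharing a member's seed, the 5 most correlated with miR-378a-3p, and called miRNAs of the metabolic list. Marker miRNAs named singly (2 muscle markers at 0 in several libraries, and the Hox-cluster miRNAs) were chosen after their values were seen. Members and lists were chosen with earlier results of these data known. Alternatives were other scalings, pseudocounts, filters, summed rows, a replicate block, limma-voom and leaving out each library. The combination of median-of-ratios scaling with a library left out was added after seeing the data.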

Additional observations from a re-analysis of the deposited data

How the results depend on the processing

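The number of miRNAs called, 229 in TPM, was 73 with median-of-ratios scaling, 63 with upper-quartile scaling, 67 with median-of-ratios scaling and a replicate block, and 28 with limma-voom. Leaving out 1 library gave 72 to 420 in TPM and 0 to 327 in scaled TPM. Where 0 were called (limma, scaled, without E14.5 replicate 1, E14.5 replicate 3 or P0 replicate 2), 142, 140 and 147 miRNAs had an unadjusted p under 0.05. The log2 fold change of miR-378a-3p passed the threshold with median-of-ratios scaling (1.94), upper-quartile scaling (2.07) and median-of-ratios scaling with the replicate block (1.94, limma adjusted p = 0.0499). With 1 library left out it was 0.39 to 0.90 in TPM and 1.58 to 2.26 in scaled TPM. That of miR-378c passed with the same 3 settings (2.28, 2.41 and 2.28) and with limma-voom (2.24). With 1 library left out that of miR-378c was 0.80 to 1.27 in TPM and 1.97 to 2.57 in scaled TPM (2.39 without P0 replicate 1). That of miR-378d was 0.45 to 0.99 in TPM and 1.37 to 2.01 in scaled TPM with 1 library left out. miR-378a-5p turned positive with median-of-ratios scaling (1.07, with the block 1.07), upper-quartile scaling (1.20), limma-voom (1.09), without P0 replicate 2 (0.18) or P0 replicate 3 (0.14), and in the scaled fits without E14.5 replicates 1 to 3 (1.09, 1.23 and 0.85) or P0 replicates 1 to 3 (0.54, 1.36 and 1.34). With 1 library left out it was −0.90 to 0.18 in TPM and 0.54 to 1.36 in scaled TPM. The arm difference of miR-378a was 0.39 to 1.70 with 1 library left out. The difference in the ratio of miR-378a-3p to miR-378c was −0.54 to −0.16, and that to miR-378d −0.19 to 0.020, positive without P0 replicate 2. With a pseudocount of 0.1 they were −0.39 and −0.29, and with none, an alternative added after seeing the data, −0.39 and −0.33 (−0.37 and −0.08 with 1). The cause of these changes was not tested. Some alternatives were run in TPM only, where 0 of 4 members were called. A pseudocount of 0.1, no filter, a filter at 10 TPM (which leaves out miR-378d) and summed rows changed no member's call or direction there. The scaled calls were not refitted under these settings. Deviations of same-numbered samples correlated at 0.193, 0.183 and 0.0423, a mean of 0.139 against −0.0712 for samples with different numbers. These correlations were low and the labels name no pairs, so the numbers were not taken as pairs. The replicate block on TPM called 247 miRNAs and 0 of 4 members, with the arm difference at 0.85 (limma adjusted p = 0.413). Depth limits miR-378d and miR-378b, which had 6 or 7 reads in E14.5 replicate 1.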
